A study of Rattus norvegicus with 12 samples.

Results

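The interferon-response and antigen-processing genes were followed in RNA from the spinal dorsal horn. The group comprised 31 genes, listed by symbol from textbook roles, with earlier results of these data known, out of 32623 genes counted, and all 31 were found. They fall into 5 roles, namely 2 RNA sensors, 7 transcription factors of the IRF and STAT families, 12 antiviral effectors, 5 genes of ISG15 conjugation, ubiquitin and ADP-ribosylation, and 5 genes of antigen processing. The samples were laser-microdissected laminae I–II (superficial layer) and laminae III–VI (deep layer) of the L5 dorsal horn of Wistar rats at 8 weeks of age, dissected 120 min after Saline, or CNO at 1 mg/kg, had been given s.c. by injection. All rats in both groups carried the OT-hM3Dq-mCherry transgene, in which the oxytocin (OT) promoter drives hM3Dq, an excitatory receptor that responds to clozapine-N-oxide (CNO), so that CNO activates OT neurons. There were 3 libraries for each layer and treatment, 12 in all, from 30 specimens of 3 rats each. Libraries with the same treatment and number were taken as the 2 layers of 1 rat, which the labels do not state. Because both groups carried the transgene and no wild-type rats given CNO were sequenced, an effect of CNO on OT neurons and an effect of CNO itself cannot be told apart.

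Interferons are secreted proteins that warn cells of infection. Type I interferons act through a receptor that brings STAT2 and IRF9 to the interferon-stimulated response element (ISRE), and interferon gamma acts on genes that hold the gamma-activated sequence (GAS). The induced genes encode proteins that block viral replication and that cut and carry peptides onto major histocompatibility complex (MHC) class I molecules. Many of these genes are also transcribed at a low level without infection. In the spinal cord Irf8 is known as a gene of microglia, whereas nearly all cell types transcribe B2m.

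Many of the promoters matched to the members hold these elements. RefSeq windows on the GRCr8 assembly, each from 250 bases before to 50 bases after the gene start, were matched for 26 of the 31 members (all but Ddx58, Ifit2, Isg15, Mx2 and Usp18). The core of the ISRE, searched on both strands as GAAA, any 2 bases and GAAA again, was in 16 of the 26 windows (61.5%), against 3.77% of 27457 rat windows of the same length. The GAS, searched as TTCNNNGAA, was in 8 of the 26 windows (30.8%), against 8.68% of all windows. Both motifs were in 5 windows (Bst2, Ifitm3, Oas1a, Parp14 and Psmb8), and they shared bases in Bst2, while neither was in 7. These matches describe letters and not bound sites. The members were listed for their roles in the interferon response, so the higher shares follow from that choice and are no separate result. The 5 windows below are shown because the results turn on these genes, 3 of them for the layer difference (Irf8, Tap1 and Eif2ak2) and 2 for their CNO values (Ifit3 and B2m). Capitals mark the motif, which is the ISRE core except in Irf8, where they mark 2 GAS matches. Tap1 and Psmb9 start 457 bases apart on opposite strands, and their windows share 44 bases.
Irf8 (chr19:65699034-65699333, plus strand): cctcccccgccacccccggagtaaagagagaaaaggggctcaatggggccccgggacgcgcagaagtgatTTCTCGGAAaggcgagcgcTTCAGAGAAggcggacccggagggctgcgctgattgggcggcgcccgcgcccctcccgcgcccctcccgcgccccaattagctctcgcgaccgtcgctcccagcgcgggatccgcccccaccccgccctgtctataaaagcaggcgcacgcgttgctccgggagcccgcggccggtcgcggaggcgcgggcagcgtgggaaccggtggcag
Tap1 (chr20:4668494-4668793, minus strand): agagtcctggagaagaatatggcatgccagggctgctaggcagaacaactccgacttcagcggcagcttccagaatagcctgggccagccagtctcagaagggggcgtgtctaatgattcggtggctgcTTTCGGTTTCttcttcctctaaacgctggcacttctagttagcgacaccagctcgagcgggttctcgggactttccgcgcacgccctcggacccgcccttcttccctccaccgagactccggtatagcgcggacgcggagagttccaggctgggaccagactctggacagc
Eif2ak2 (chr6:21940904-21941203, plus strand): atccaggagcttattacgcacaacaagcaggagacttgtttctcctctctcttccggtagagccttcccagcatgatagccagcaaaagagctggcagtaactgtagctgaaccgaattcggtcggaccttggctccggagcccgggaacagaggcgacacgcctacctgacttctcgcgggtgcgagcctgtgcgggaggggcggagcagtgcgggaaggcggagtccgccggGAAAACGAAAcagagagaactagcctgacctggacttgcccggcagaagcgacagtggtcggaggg
Ifit3 (chr1:241527076-241527375, plus strand): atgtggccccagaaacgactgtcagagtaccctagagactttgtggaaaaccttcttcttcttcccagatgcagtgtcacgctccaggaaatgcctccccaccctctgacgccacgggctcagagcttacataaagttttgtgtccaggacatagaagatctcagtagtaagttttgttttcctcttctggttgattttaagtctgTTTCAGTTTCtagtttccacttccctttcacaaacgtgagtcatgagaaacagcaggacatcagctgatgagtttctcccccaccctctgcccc
B2m (chr3:129549080-129549379, plus strand): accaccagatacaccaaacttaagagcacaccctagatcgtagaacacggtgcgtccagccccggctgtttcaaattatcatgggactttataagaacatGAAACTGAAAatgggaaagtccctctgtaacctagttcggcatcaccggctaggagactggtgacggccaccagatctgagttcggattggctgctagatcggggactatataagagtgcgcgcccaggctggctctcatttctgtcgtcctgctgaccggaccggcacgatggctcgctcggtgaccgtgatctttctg

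Total counts per library lay between 5245952 and 7889953, and in laminae I–II each CNO library (6095833 to 6576869) was larger than each Saline library (5245952 to 5694619). Values are CPM (counts divided by library size) scaled by TMM factors over all 12 libraries, and they do not compare the levels of different genes, since gene lengths were not used. Most members had low counts. Psmb9 had 5 to 20 counts per library, Tap2 6 to 17 and Mx1 3 to 42, whereas Stat2 had 206 to 318, Eif2ak2 219 to 411 and B2m 926 to 1430. The tissue held the RNA of its main cells, with summed markers of neurons at 2581 to 3525 CPM, of oligodendrocytes at 13933 to 18446 CPM, of astrocytes at 3141 to 4812 CPM and of microglia and macrophages at 157 to 319 CPM. Lymphocyte markers summed to 4.68 to 12.4 CPM, and apart from Ptprc none of that list passed the low-count filter. The laminae I–II library Saline 3 stood apart, with 657 CPM of Schwann-cell markers (349 and 320 CPM in Saline 1 and 2, 126 to 196 CPM with CNO) and 584 CPM of fibroblast markers (210 to 241 CPM in the other 5 libraries of that layer). In bulk tissue, fewer cells of a type and less RNA per cell cannot be told apart.

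**Figure D1:**
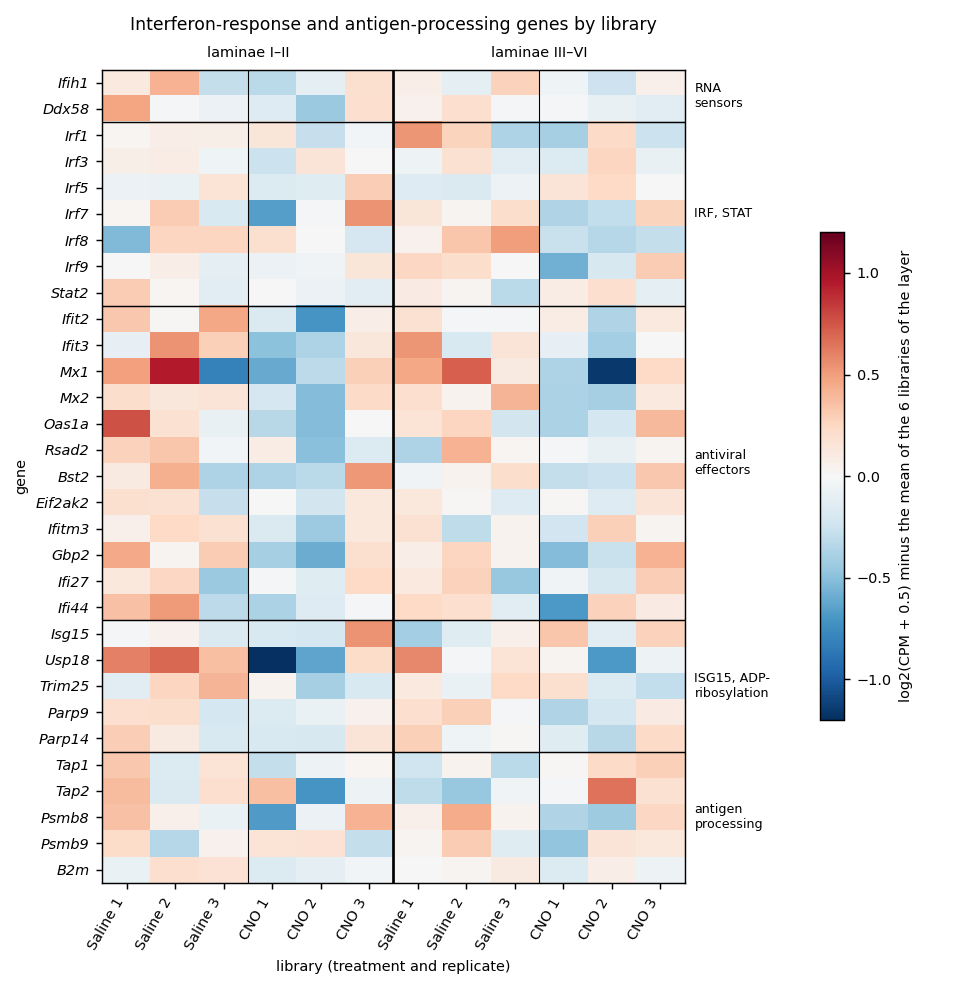
The 31 members (rows, grouped by role) in the 12 libraries (columns), as log2(CPM + 0.5) minus the mean of the 6 libraries of the same layer; red is above that mean and blue below. Saline 1 and Saline 2 are mostly red and CNO 1 and CNO 2 mostly blue in both layers, while CNO 3 is mostly red.

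The comparison of CNO with Saline asked whether these genes differed with CNO in each layer of the transgenic rats. In laminae I–II no member passed the test. At an edgeR quasi-likelihood adjusted p under 0.05, 0 of 31 members were called, beside 0.142% of the 13344 genes tested (19 genes), and DESeq2 and limma-voom also called 0. Most values nevertheless lay on the lower side. The log2 fold change was under 0 for 26 of 31 members, beside 50.9% of all genes, with a median of -0.20 beside 0.00 for all genes. The members were read in the same libraries and chosen with earlier results known. Counts of members, here and below, are therefore descriptions and not tests. At an unadjusted p under 0.05, 6 members were lower with CNO (3.59% of all genes) and 0 were higher (3.46%), in the order Usp18, B2m, Ifit2, Gbp2, Ifit3 and Mx2. DESeq2 and limma-voom gave 3 and 6, all lower.

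Among the genes of ISG15 conjugation, Usp18, the protease that removes ISG15 and dampens signalling at the interferon receptor, was the member with the smallest p in laminae I–II. The gene lies on rn6 at chr4:153805993-153834430 (ENSRNOG00000037198, plus strand). It was at 5.37, 5.65 and 4.45 CPM in Saline 1 to 3 and at 1.16, 2.00 and 4.01 CPM in CNO 1 to 3. The groups did not overlap, and CNO 3 lay close to the lowest Saline library. The log2 fold change was -1.10 (standard error, SE, 0.34, adjusted p = 0.447 by edgeR). Usp18 was the only member whose groups did not overlap in this layer, which is 1 of 31 beside 11.7% of the genes tested. Isg15 itself, the ubiquitin-like modifier, was at 3.46 to 4.11 CPM with Saline and at 3.49, 3.38 and 6.02 CPM with CNO (log2 fold change 0.16, 95% interval -0.44 to 0.76), so Usp18 and Isg15 had values on opposite sides of 0. Trim25, a ubiquitin ligase that acts on RIG-I, had a log2 fold change of -0.39, and Parp9 and Parp14, which act in ADP-ribosylation, of -0.14 and -0.15.

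The antiviral effectors gave the lowest median of the 5 roles in laminae I–II, at -0.41 over 12 genes, and 11 of the 12 were under 0. Ifit2, an inhibitor of translation, was at 14.7, 11.6 and 16.2 CPM with Saline and at 10.3, 6.91 and 12.3 CPM with CNO (log2 fold change -0.53, SE 0.19, adjusted p = 0.555 by edgeR). Its CNO 3 library lay above the lowest Saline library. Its neighbour and relative Ifit3 (16.7 kb for the pair on chromosome 1 of rn6, from 252894663 to 252911382) was at 6.99, 10.955 and 9.23 CPM with Saline and at 5.24, 5.68 and 8.31 CPM with CNO (log2 fold change -0.51). Gbp2, a guanylate-binding protein, was at 11.1, 8.05 and 9.89 CPM with Saline and at 5.97, 5.06 and 9.17 CPM with CNO (log2 fold change -0.53, SE 0.22, adjusted p = 0.650 by edgeR). For both genes CNO 1 and CNO 2 lay under every Saline library and CNO 3 lay among them. Mx2, a dynamin-like GTPase, was at 40.7 to 43.4 CPM with Saline and at 32.6, 25.8 and 44.0 CPM with CNO, so that CNO 3 was the highest of the 6 libraries. The other effectors under 0 were Oas1a (-0.68), Mx1 (-0.59), Ifi44 (-0.42), Rsad2 (-0.41), Ifitm3 (-0.32), Bst2 (-0.09) and Eif2ak2 (-0.07), and Ifi27 was at 0.03.

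Among the roles, the transcription factors had the median nearest to 0 in laminae I–II. The 7 IRF and STAT genes had a median log2 fold change of -0.04 and a range of -0.14 (Stat2) to 0.02 (Irf9), and the sensors were at -0.18 for Ifih1 (MDA5) and -0.26 for Ddx58 (RIG-I). In antigen processing, B2m, the invariant chain of MHC class I (ENSRNOG00000017123, chr3:114087287-114093309, plus strand), was the most precisely measured member. It was at 166, 199 and 197 CPM with Saline and at 158, 162 and 171 CPM with CNO, and only CNO 3 lay above the lowest Saline library. The log2 fold change was -0.21 (SE 0.07, 95% interval -0.36 to -0.05, adjusted p = 0.552 by edgeR). Tap1 and Tap2, the peptide transporter, and Psmb8 and Psmb9, subunits of the immunoproteasome, lay between -0.27 and 0.04. The 95% intervals of 27 of the 31 members stayed within a log2 change of 1 in either direction, and those of Usp18, Oas1a, Mx1 and Tap2 reached under -1.

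In laminae III–VI the values leaned the same way and again no member passed. Of the 31 members 30 were tested, since Psmb9 had too few counts, of which 0 were called at an edgeR adjusted p under 0.05 (0.137% of 13117 genes, 18 genes), with 0 also by DESeq2 and limma-voom. The log2 fold change was under 0 for 21 of 30 members, beside 51.4% of all genes, with a median of -0.16 beside -0.01. The median was -0.27 for the IRF and STAT genes and -0.12 for the antiviral effectors, in the reverse order of laminae I–II. At an unadjusted p under 0.05, 3 members were lower (4.13% of all genes) and 0 were higher (5.11%), and DESeq2 and limma-voom gave 1 and 3 lower. Groups did not overlap for 4 of the 30 members, beside 14.5% of all genes, with Irf8 and Ddx58 lower (7.19% of all genes) and Irf5 and Tap2 higher with CNO (7.29%).

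Mx2 (ENSRNOG00000001963, chr11:38035450-38059950, plus strand) had the smallest p in the deep layer. It was at 37.6, 33.6 and 43.5 CPM with Saline and at 24.99, 24.55 and 35.47 CPM with CNO, where CNO 3 again lay among the Saline libraries (log2 fold change -0.43, SE 0.13, adjusted p = 0.328 by edgeR). Irf8, a transcription factor that myeloid cells and microglia need (ENSRNOG00000017869, chr19:54314865-54336640, plus strand), was at 3.46, 4.29 and 4.89 CPM with Saline and at 2.67, 2.51 and 2.63 CPM with CNO. All 3 CNO libraries lay under all 3 Saline libraries, with little spread among them (log2 fold change -0.69, SE 0.27, adjusted p = 0.454 by edgeR). Mx1, the second Mx GTPase, was at 2.66, 3.26 and 1.96 CPM with Saline and at 1.26, 0.501 and 2.19 CPM with CNO, with 3 counts in CNO 2 (log2 fold change -0.94, SE 0.41, adjusted p = 0.497 by edgeR). Ifit3 was at 13.6, 8.06 and 10.3 CPM with Saline and at 8.65, 6.85 and 9.34 CPM with CNO (log2 fold change -0.38, SE 0.19, adjusted p = 0.569 by edgeR). Usp18 was at 5.98, 3.77 and 4.34 CPM with Saline and at 3.93, 2.17 and 3.65 CPM with CNO (log2 fold change -0.54). Ifit2 was at 17.8 to 20.6 CPM with Saline and 14.0 to 19.7 CPM with CNO (log2 fold change -0.09).

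In laminae III–VI 9 members had values above 0, of which Stat2, Ifitm3, Ifi27, Eif2ak2 and Irf3 lay between 0.01 and 0.12. Tap2 was at 1.03 to 1.54 CPM with Saline and at 1.57 to 2.84 CPM with CNO (log2 fold change 0.71, 95% interval -0.10 to 1.52), on 6 to 17 counts per library. Tap1 was at 3.36 to 4.46 CPM with Saline and 4.40 to 5.40 CPM with CNO (log2 fold change 0.40), so the groups overlapped narrowly. Isg15 was at 2.79 to 4.05 CPM with Saline and 3.51 to 5.03 CPM with CNO (log2 fold change 0.38), and Irf5, which acts below Toll-like receptors, was at 4.98 to 5.45 CPM with Saline and 5.69 to 6.85 CPM with CNO (log2 fold change 0.28). None of these values passed the test. The 95% intervals of 24 of the 30 members stayed within a log2 change of 1, with those of Mx1, Irf8, Psmb8, Usp18 and Irf1 reaching lower and that of Tap2 higher.

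**Figure D2:**
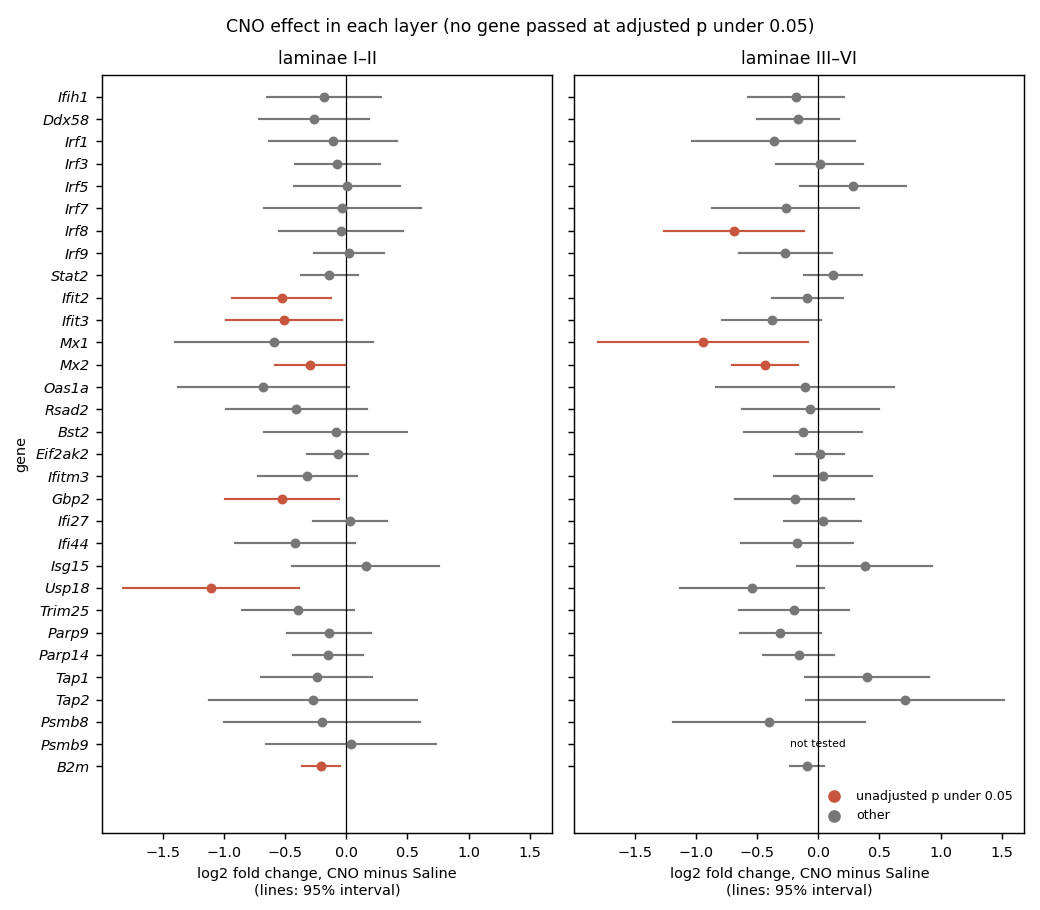
Log2 fold change (CNO minus Saline) of each member in laminae I–II (left) and laminae III–VI (right), with 95% intervals from edgeR; red marks an unadjusted p under 0.05. The points of 26 of 31 members lie under 0 on the left and of 21 of 30 on the right, and no member passed at an adjusted p under 0.05.

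Of the 30 members tested in both layers, 20 had a value under 0 in both (29.4% of 12881 genes) and 3 had a value above 0 in both (Ifi27, Irf5 and Isg15; 26.8% of genes). The remaining 7 lay on opposite sides. The layers are taken to share their rats, and the members share their libraries, so neither are separate evidence of a direction. The median deviation of the members from the mean of their layer was 0.20 and 0.18 in Saline 1 and Saline 2 of laminae I–II and -0.05 in Saline 3. It was -0.18 and -0.22 in CNO 1 and CNO 2 and 0.13 in CNO 3 on the log2 scale. In laminae III–VI the same rats gave 0.12, 0.04 and 0.02 with Saline and -0.16, -0.20 and 0.11 with CNO, while the medians of all genes lay within 0.01 of 0 in each library. In both layers the low libraries were those of 2 of the 3 CNO rats. CNO 3 was the highest of the 3 CNO libraries for 23 of 31 members in laminae I–II (31.9% of all genes) and for 17 of 30 in laminae III–VI (31.7%), and for 16 of 30 members in both layers (12.7% of 12881 genes). In the superficial layer the number of members under the Saline mean was 27 in CNO 1, 29 in CNO 2 and 19 in CNO 3. In laminae III–VI it was 22, 20 and 15 of 30. Without CNO 3, 29 of 31 members in laminae I–II had a value under 0 and 9 had an unadjusted p under 0.05, and in laminae III–VI these were 23 and 8 of 30, with 0 called in either layer. The median log2 fold change was then -0.34 and -0.26. Leaving out each other library in turn gave 22 to 27 members under 0 in laminae I–II, of which the value of 27 was without Saline 3, the library rich in Schwann-cell and fibroblast markers, and 17 to 25 in laminae III–VI. In laminae I–II the number at an unadjusted p under 0.05 was 3 in place of 6 without Saline 2 and 2 without either CNO 1 or CNO 2, and the median was -0.12 without Saline 1. In laminae III–VI the median was -0.07 without CNO 1.

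**Figure D3:**
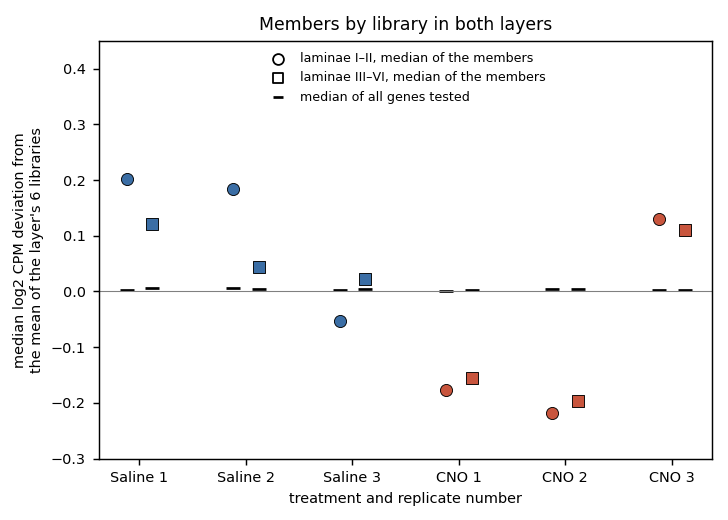
Median log2 CPM deviation of the members from the mean of the 6 libraries of their layer, for each rat (blue Saline, red CNO; circles laminae I–II, squares laminae III–VI), with bars for the median of all genes tested. CNO 1 and CNO 2 lie between -0.16 and -0.22 in both layers, and CNO 3 lies at 0.13 and 0.11, close to Saline 1.

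Markers of other cell types also differed between the Saline and CNO libraries, and not all in the same direction. In laminae I–II edgeR called 4 of 6 Schwann-cell markers lower with CNO (median log2 fold change -2.06), beside 0.142% of all genes called. It called 1 of 9 fibroblast markers lower (median -1.08), with 5 lower at an unadjusted p under 0.05 (3.59% of all genes). In laminae III–VI edgeR called none of the 5 and 9 tested (medians -0.14 and 0.03). There 1 Schwann-cell marker was lower (4.13% of all genes) and 1 fibroblast marker higher (5.11%) at an unadjusted p under 0.05. The sums of the Schwann-cell markers did not overlap between the treatments in laminae I–II, with Saline 1 and Saline 2 also above all CNO libraries. Astrocyte markers were above 0 for 6 of 8 in laminae I–II, with 3 higher at an unadjusted p under 0.05 by edgeR (3.46% of all genes). In laminae III–VI 7 of 8 were under 0, with 2 lower (4.13%). None of them was called in either layer. The markers of microglia and macrophages had values mostly under 0. The 13 markers found summed to 257 to 319 CPM with Saline in laminae I–II and 236 to 275 CPM with CNO, and in laminae III–VI to 168 to 244 CPM with Saline and 157 to 165 CPM with CNO. The latter groups did not overlap. Of the 11 markers tested, edgeR called 0 in either layer (1 and 5 at an unadjusted p under 0.05, all lower, beside 3.59% and 4.13% of all genes). The log2 fold change was under 0 for 10 in laminae I–II (median -0.16, 50.9% of all genes) and for 11 in laminae III–VI (median -0.33, 51.4%). No marker of this list was at 0 in a group. CNO 3, which was high for the interferon genes, was at 275 CPM of these markers in laminae I–II and at 157 CPM, the lowest of the 12 libraries, in laminae III–VI. The part of these cells in the CNO values of the members was not tested.

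Whether CNO had another effect in 1 layer than in the other was tested in 1 fit of all 12 libraries with the rat as a block. Of 31 members 0 passed at an edgeR adjusted p under 0.05 (0.429% of 13745 genes), 0 by DESeq2 and 0 by limma-voom, and 2 had an unadjusted p under 0.05 (9.26% of all genes; 0 by DESeq2 and 2 by limma-voom). Ifit2 had the smallest p, with a CNO effect more negative in laminae I–II (difference of log2 fold changes -0.44, SE 0.19, adjusted p = 0.459 by edgeR). Stat2, the partner of IRF9 at the ISRE, followed (-0.26, SE 0.12, adjusted p = 0.537 by edgeR). It was at 34.0 to 46.8 CPM with Saline and 34.4 to 38.0 CPM with CNO in laminae I–II, and at 31.3 to 42.3 CPM with Saline and 36.6 to 45.6 CPM with CNO in laminae III–VI.

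**Figure D4:**
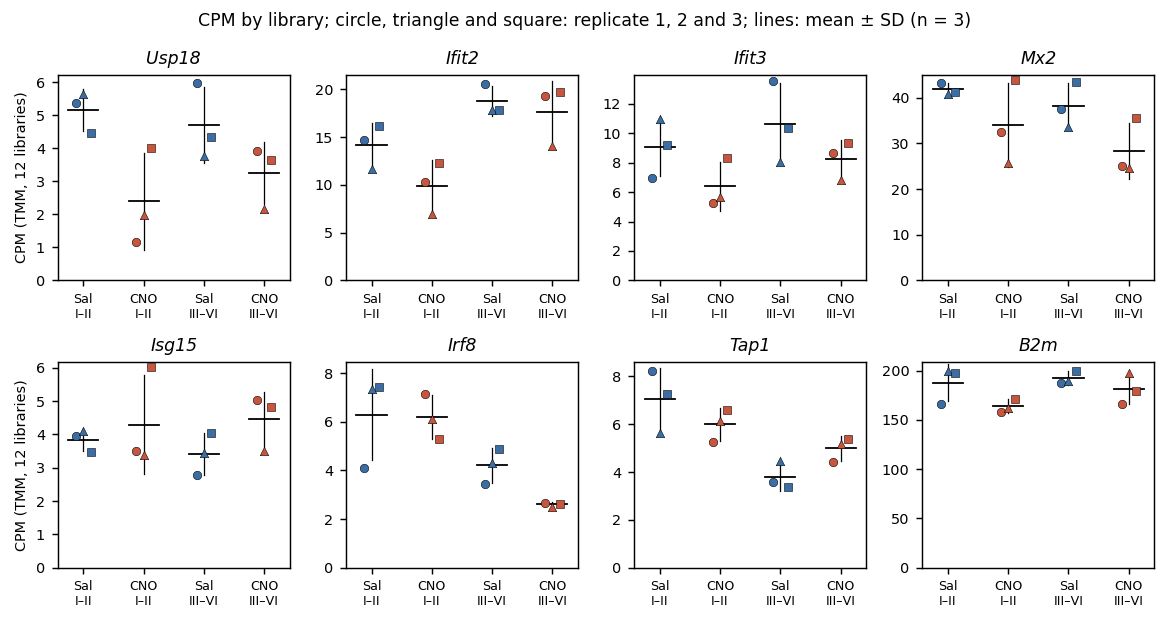
CPM (TMM over the 12 libraries, axis from 0) of 8 members in each library, with the mean ± SD of n = 3 per group; circle, triangle and square are replicates 1, 2 and 3, blue is Saline and red CNO. Irf8 and Tap1 are higher in laminae I–II than in laminae III–VI and Ifit2 is lower, and for Usp18, Ifit2, Ifit3 and Mx2 the CNO 3 square is the highest CNO point in laminae I–II.

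Between the layers, a smaller share of the members than of all genes was called, and the calls fell in 3 of the 5 roles. Low counts make calls less likely, and most members had low counts, with an SE from 0.04 (B2m) to 0.31 (Tap2). No share was taken over genes of like count, so the smaller share is no result about the members. In the fit of all 12 libraries with the rat as a block, 12 of 31 members were called at an edgeR adjusted p under 0.05, beside 61.6% of 13745 genes. The superficial layer had the higher level in 10 and the deep layer in 2, beside 30.8% of genes in each direction. The 10 were thus near the share of all genes and the 2 under it. Scaled by library totals alone, the median log2 difference of all genes moved from 0.02 to 0.19, the split of the members became 16 and 1, and that of all genes 6515 and 2533 in place of 4235 and 4227. The differences below are relative to the TMM scaling, and counts of rats rest on the assumed pairing of the layers. Without the rat as a block, 7 of the 12 members were called. Of the 12 called members, 6 were called without each rat in turn (Eif2ak2, Ifit2, Irf8, Mx1, Psmb9 and Tap1). DESeq2 called 5 members, those 6 without Eif2ak2. Groups did not overlap between the layers for 1 member, Psmb9, beside 35.2% of all genes.

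Of the transcription factors 5 of 7 were called, all higher in laminae I–II (30.8% of all genes). Irf8 was at 4.12, 7.36, 7.42, 7.13, 6.14 and 5.30 CPM in laminae I–II of Saline 1 to 3 and CNO 1 to 3, against 3.46, 4.29, 4.89, 2.67, 2.51 and 2.63 CPM in laminae III–VI of the same rats. It was higher in laminae I–II in 6 of 6 rats (0.87 on the log2 scale, SE 0.18, adjusted p = 0.000163 by edgeR). The difference was 0.57 in the Saline rats alone (edgeR adjusted p = 0.0505) and 1.24 in the CNO rats alone (edgeR adjusted p = 5.91e-05). A test of that difference, the interaction, did not pass (edgeR adjusted p = 0.553). Irf1, which answers to interferon gamma, was higher by 0.50 (4 of 6 rats), Irf7, which amplifies the interferon response, by 0.47 (6 of 6), Irf5 by 0.37 (5 of 6) and Irf9 by 0.28 (6 of 6), on the log2 scale. The calls of these 4 genes each depended on rats. Irf1 did not pass without Saline 3, CNO 1 or CNO 3 (log2 difference down to 0.37, edgeR adjusted p up to 0.148), and Irf5 not without Saline 1, Saline 2, Saline 3 or CNO 3 (down to 0.29, up to 0.123). Irf7 did not pass without Saline 2, CNO 2 or CNO 3 (down to 0.40, up to 0.114), and Irf9 not without CNO 1 or CNO 2 (down to 0.18, up to 0.122). Irf3, the constitutive factor that switches on interferon genes, was higher in laminae I–II in 6 of 6 rats by 0.12 but did not pass (edgeR adjusted p = 0.317), and Stat2 was at -0.07.

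The antiviral effectors differed in both directions. Ifit2 had the smallest p of all members and was higher in the deep layer. It was at 14.7, 11.6, 16.2, 10.3, 6.91 and 12.3 CPM in laminae I–II of Saline 1 to 3 and CNO 1 to 3, and at 20.6, 17.8, 17.9, 19.3, 14.0 and 19.7 CPM in laminae III–VI (-0.61 on the log2 scale, SE 0.10, adjusted p = 2.08e-05 by edgeR). The deep layer was higher in 6 of 6 rats. Ifit3, its neighbour, had a log2 difference of -0.30, with the deep layer higher in 5 of 6 rats, and did not pass. Eif2ak2, the kinase PKR that stops translation on sensing double-stranded RNA, was higher in the deep layer in 6 of 6 rats, at 36.1 to 50.5 CPM in laminae I–II and 45.02 to 56.05 CPM in laminae III–VI (-0.19 on the log2 scale, SE 0.06, adjusted p = 0.00581 by edgeR). With library totals alone its difference was -0.01 and did not pass.

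The Mx genes went the other way. Mx1 was at 5.195, 7.19, 1.81, 2.18, 2.76 and 4.44 CPM in laminae I–II of Saline 1 to 3 and CNO 1 to 3, against 2.66, 3.26, 1.96, 1.26, 0.501 and 2.19 CPM in laminae III–VI, higher in the superficial layer in 5 of 6 rats (0.97 on the log2 scale, SE 0.24, adjusted p = 0.00111 by edgeR). Mx2 was at 25.8 to 44.0 CPM and 24.6 to 43.5 CPM (0.19 on the log2 scale, SE 0.07, adjusted p = 0.0170 by edgeR, 5 of 6 rats), and did not pass without Saline 2 (0.17, edgeR adjusted p = 0.0513), CNO 1 (0.16, 0.0706) or CNO 3 (0.16, 0.0687). Mx1 and Mx2 are similar in sequence, and how reads that fit both were counted is not given in the sources used here. Ifi27, a small membrane protein, was at 24.2 to 39.4 CPM and 21.4 to 36.3 CPM (0.17 on the log2 scale, SE 0.06, adjusted p = 0.0202 by edgeR, 6 of 6 rats). It did not pass without CNO 1 (0.16, edgeR adjusted p = 0.0529) or CNO 2 (0.16, 0.0514). Oas1a, an oligoadenylate synthetase, Gbp2, Ifi44, Rsad2 (viperin), Bst2 (tetherin) and Ifitm3, a block to viral entry, did not pass.

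**Figure D5:**
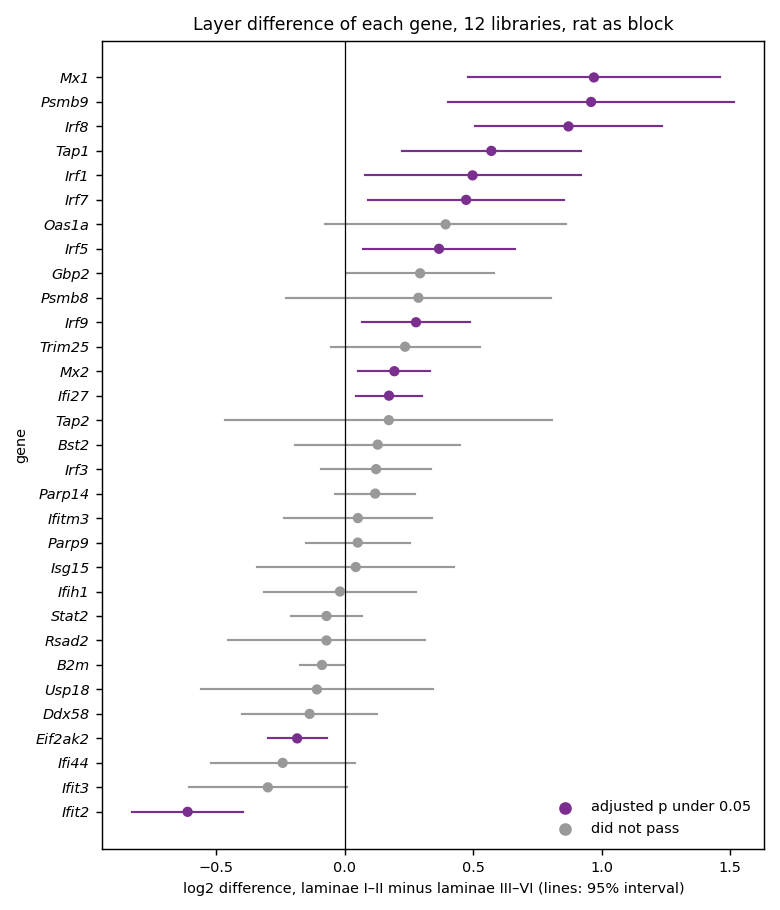
Log2 difference of each member between the layers (laminae I–II minus laminae III–VI) with 95% intervals from the edgeR fit of 12 libraries with the rat as a block; purple marks an adjusted p under 0.05. Of the 12 purple genes, 10 lie above 0, led by Mx1, Psmb9 and Irf8, and Ifit2 and Eif2ak2 lie under 0.

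In antigen processing 2 of 5 members passed, both higher in laminae I–II (30.8% of all genes), and they stand next to each other. Psmb9, Tap1, Psmb8 and Tap2 lie within 36.2 kb on chromosome 20 of rn6 (3973420 to 4009587), in the MHC region. Psmb9 was at 1.88 to 3.05 CPM in laminae I–II and at 0.786 to 1.72 CPM in laminae III–VI, higher in 6 of 6 rats (0.96 on the log2 scale, SE 0.27, adjusted p = 0.00371 by edgeR). Tap1 was at 8.24, 5.65, 7.25, 5.24, 6.14 and 6.59 CPM in laminae I–II of Saline 1 to 3 and CNO 1 to 3, against 3.59, 4.46, 3.36, 4.40, 5.18 and 5.40 CPM in laminae III–VI, higher in 6 of 6 rats (0.57 on the log2 scale, SE 0.17, adjusted p = 0.00546 by edgeR). The difference of Tap1 was 0.91 in the Saline rats alone (edgeR adjusted p = 0.00409) and 0.27 in the CNO rats alone (edgeR adjusted p = 0.307), and the interaction did not pass (difference -0.64, edgeR adjusted p = 0.549). The partners Psmb8 (0.29) and Tap2 (0.17) had values on the same side and did not pass. B2m was at 158 to 199 CPM in laminae I–II and 166 to 200 CPM in laminae III–VI (-0.09 on the log2 scale, SE 0.04, adjusted p = 0.0657 by edgeR), and it turned to 0.09 with library totals alone.

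The remaining roles gave no calls between the layers. Of the sensors, Ddx58 had the smaller p, at 6.29 to 12.4 CPM in laminae I–II and 8.90 to 11.3 CPM in laminae III–VI (-0.14 on the log2 scale, SE 0.13, adjusted p = 0.360 by edgeR), and it turned to 0.04 with library totals alone. Trim25 had the smallest p of the ISG15 and ubiquitin genes, at 5.06 to 9.23 CPM and 4.67 to 6.99 CPM (0.23 on the log2 scale, SE 0.14, adjusted p = 0.153 by edgeR). The log2 differences of Isg15, Usp18, Parp9 and Parp14 lay between -0.11 and 0.12. Markers of microglia and macrophages were called higher in laminae I–II for 11 of 11 tested (median log2 difference 0.68), beside 30.8% of all genes. Fibroblast markers were called higher for 5 of 9, and Schwann-cell markers for 5 of 6 with 1 lower. Called higher in laminae III–VI were 6 of 7 oligodendrocyte markers, 6 of 7 of pericytes and smooth muscle and 2 of 7 of endothelium (30.8% of all genes). Astrocyte markers gave 4 higher and 3 lower in laminae I–II of 8, and neuron markers 2 and 3 of 8. The part of these cells in the differences of Irf8 and the other members was not tested.

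Genes around the members in the same pathways were read from 6 further lists of 126 entries, of which 117 were found. With CNO, 0 of 81 tested were called in laminae I–II and 0 of 78 in laminae III–VI, while at an unadjusted p under 0.05 there were 1 higher and 6 lower in the superficial layer (941 of 13344 genes in either direction) and 3 higher and 8 lower in the deep layer (1212 of 13117). DESeq2 called 0 in both layers, while limma-voom called 1 in laminae I–II, RT1-DMa, a class II peptide exchange factor named here after its values were seen. RT1-DMa had 13 to 16 counts in the 3 Saline libraries of that layer and 8, 0 and 0 with CNO (edgeR adjusted p = 0.249), and in laminae III–VI it varied from 0 to 14 counts. Other settings called Cd74 with RT1-DMa in laminae I–II (no low-count filter, and the replicate block) and RT1-DMa alone (without CNO 1), and Ctss in laminae III–VI (no filter, the replicate block, and without Saline 3). Cd74 had 32 to 82 counts with Saline and 16 to 47 with CNO in laminae I–II (log2 fold change -1.05, edgeR adjusted p = 0.499), and Ctss 271 to 365 and 202 to 250 counts in laminae III–VI (-0.47, edgeR adjusted p = 0.284). The interferon ligands were hardly detected. Ifng, Ifnk, Ifnl1 and Ifnl3 had 0 counts in all 12 libraries, and Ifna2, Ifna4, Ifna5 and Ifnb1 had 0 to 2 counts per library, so a change in them was not detectable at this depth. The receptors were detected, with Ifnar1 at 624 to 904 counts and Ifngr1 at 188 to 304. Ifnlr1, the receptor chain for type III interferons, was at 1.97 to 4.87 CPM in laminae I–II and 0.172 to 0.979 CPM in laminae III–VI (log2 difference 2.41, edgeR adjusted p = 1.05e-06), on 1 to 34 counts.

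Between the layers 37 of 86 tested pathway genes were called by edgeR (61.6% of all genes), 24 higher in the superficial layer and 13 in the deep layer (30.8% of all genes each way). DESeq2 called 26, and 50 were called with library totals alone. In signalling, Ifngr1 (0.39), a receptor chain for interferon gamma, and Jak2 (0.58), a kinase of the interferon gamma receptor complex, were higher in laminae I–II, as was Irf2bp2 (0.37). Ifngr2 (-0.29), the second chain of the interferon gamma receptor, and the phosphatase Ptpn11 (-0.34) were higher in laminae III–VI. Genes were named in each direction by rule, so their lying on both sides is no result about the pathway. In sensing, Tlr7 (0.71) was higher in laminae I–II, and Traf3 (-0.50) and the RNA-editing enzyme Adar (-0.34) in laminae III–VI. Of the other interferon-stimulated genes, Lgals3bp (0.41) and Oasl2 (0.42) were higher in laminae I–II, and Cmpk2 (-0.40) and Ifi27l2b (-1.85) in laminae III–VI. In antigen presentation, Psme1 (0.78), an activator of the proteasome, Tapbpl (0.77), Ctss (0.50), a protease that cuts the class II invariant chain, and Cd74 (1.502), that chain itself, were higher in laminae I–II, and the chaperones Canx (-0.34) and Calr (-0.33) were higher in laminae III–VI. All of these log2 differences passed at an edgeR adjusted p under 0.05.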

How the data were processed

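The deposited tables hold total read counts per gene, which the authors made by mapping paired reads to the rat reference rn6 with CLC Genomics Workbench from rRNA-depleted directional libraries (50 ng total RNA each). These counts were used as deposited. The tables also hold quantile-normalized and transformed values, group means and the authors' own test columns of comparisons, none of which were used. Whether the counting used strand is not given in the sources used here.

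Counts were analysed in R 4.3.3 with edgeR 4.0.16 (filterByExpr with minimum count 10 and minimum total 15, TMM, quasi-likelihood test, Benjamini-Hochberg adjustment over all genes tested, threshold 0.05), limma 3.58.1 and DESeq2 1.42.0, and in Python 3.11.15. CNO was compared with Saline within each layer (3 against 3, where exact permutation of 1 gene gives no p under 0.1). The layers and the interaction were fitted over 12 libraries with the rat as a block. The methods give 3 rats for each layer and treatment, with the layers of a section collected separately, and do not state outright that both layers came from the same rats. Libraries of the same treatment and number had a correlation of deviations across layers of 0.100 to 0.172. Same-numbered libraries of different treatments, which are different rats, reached 0.113, and pairs of different number were not compared. The correlations therefore cannot settle the pairing, and reading replicate numbers as rats is an assumption. The p-values of the CNO comparisons set a difference against the spread between libraries of a group. Those of the layers and the interaction set it against the spread left after the rat block. Replicates differed by more than sampling noise (chi-square per degree of freedom 2.50 to 4.35). Total counts per library are given with the results; members with few counts also carry counting error. The fitting code was tested on simulated data.

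The members and lists were chosen with earlier results of these data known, so no test over a list was made. Paralogs read with 36-base reads (Mx1 and Mx2, Ifit2 and Ifit3) could share reads. RefSeq promoter windows were on GRCr8, positions of genes on rn6. Full statistics are given for the 4 members with the smallest p in each CNO comparison, the 8 with the smallest p between the layers together with B2m and the first of each role, and 2 in the interaction. Of the pathway lists, the genes named are those called with CNO (none by edgeR) and, between the layers, 2 called genes per list and direction, those of smallest p; 1 such gene is not reported here. Ifnar1, RT1-DMa, the ligands and the CNO values of Cd74 and Ctss were chosen after their values were seen. Alternatives were DESeq2, limma-voom, RLE factors, library totals only, no filter, a minimum of 1 CPM in 3 libraries, CNO effects fitted on all 12 libraries, replicate blocks, fits of Saline or CNO rats alone, and leaving out each library or rat.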

Additional observations from a re-analysis of the deposited data

How the results depend on the processing

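With CNO, 0 members were called under the main fit and under most alternatives. The exceptions were edgeR fits without the low-count filter, which called 1 in laminae I–II (Usp18, edgeR adjusted p = 0.0491) and 1 in laminae III–VI (Mx2, edgeR adjusted p = 0.0154), and the replicate block, which called 1 in laminae III–VI (Mx2, log2 fold change -0.44, edgeR adjusted p = 0.00952). Same-numbered libraries of the 2 treatments shared only a number (correlation of deviations 0.0193 to 0.0438 in laminae I–II and 0.0582 to 0.113 in laminae III–VI). Of all genes, 19 were called in laminae I–II and 9 by DESeq2, 131 without a filter, 78 with the replicate block and 3 to 29 with a library left out. In laminae III–VI 18 were called, 112 without a filter, 194 with the replicate block, 0 by edgeR when all 12 libraries were fitted (1191 had an unadjusted p under 0.05) and 0 to 93 with a library left out. For the interaction 59 genes were called, 28 by DESeq2, 164 without a filter, 2 with no replicate block and 14 to 71 with a rat left out.

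Between the layers 12 members were called, 5 by DESeq2, 7 with no replicate block, 4 in the Saline rats only and 8 to 11 with a rat left out. With library totals only, 4 members in place of 10 had a log2 difference under 0, the median of the members was 0.31, and the differences of B2m (0.0889) and Ddx58 (0.0399) changed sign. The causes were not tested. The lowest member, Psmb9, had 5 to 20 counts per library.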
